A study of Mus musculus with 14 samples.

Results

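The immunoglobulin heavy and light chain genes were followed in 14 transplanted mouse hearts, each measured on 1 MG-U74Av2 oligonucleotide array. A probe set is the group of short probes that reads 1 transcript. Probe sets were taken where the platform annotation names exactly 1 gene and that gene is a heavy chain constant or variable gene, a kappa or lambda chain gene, or the J chain. There were 60 such probe sets, and the 53 with a signal above 11 on at least 3 of the 14 arrays were kept, out of 10395 probe sets of all kinds that passed the same filter. The 53 are annotated to 26 genes, of 7366 genes with a passing probe set of their own: 22 probe sets to heavy chain constant genes (Ighm 12, Ighg3 6, Igha 3, Ighd 1), 1 to the J chain, 5 to heavy chain variable segments, 24 to kappa variable segments of 16 genes, and 1 to the lambda constant gene Iglc1. These names are the platform's, and whether a probe set reads the constant region, a rearranged transcript or another isotype was not tested, so counts by gene or isotype are counts by annotation. No probe set annotated to the epsilon heavy chain, the kappa constant region or a lambda variable segment alone was among them.

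Every recipient was a C57/BL6 mouse. Isografts were C57/BL6 hearts, taken at day 7 (n = 3) or day 70 (n = 2). Allografts were Balb/c hearts, either untreated and named rejecting, taken at day 7 (n = 3), or given anti CD80/86 mAb and named tolerizing, taken at day 7 (n = 3) or day 70 (n = 3). The antibody binds CD80 and CD86, ligands through which antigen-presenting cells costimulate T cells. Where an allograft is set against an isograft, donor strain changes with it and cannot be told apart from the response to the graft. Rejecting and tolerizing hearts differ in the antibody, and no untreated allograft was taken at day 70. Whether replicate hearts came from separate operations is not stated in the labels, so p-values measure only the spread between these samples.

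An antibody is built of heavy and light chains, each with a variable part that binds antigen and a constant part. A B cell joins 1 heavy and 1 light variable segment out of many, carries the product first as IgM and IgD, and can later switch the heavy constant region to IgG, IgA or IgE. Plasma cells, the end stage of the lineage, transcribe immunoglobulin genes at very high levels, and the J chain links the units of secreted IgM and IgA. The heart itself is not known as a source of these transcripts. In bulk tissue, fewer cells of a type and less RNA per cell cannot be told apart.

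The deposited arrays were already on 1 scale, with trimmed means of 100.06 to 100.07, so their likeness in overall signal is no separate observation. The median over the table was 38.2 to 45.65, and 71.97% to 78.8% of probe sets lay above 11. Signals are in the arbitrary linear units of the deposited table. They were tested as log2 values with every signal under the floor of 11 raised to it, in 1 limma fit over all 5 groups, and "called" means a Benjamini-Hochberg adjusted p under 0.05 over all 10395 probe sets. A difference is the mean log2 signal of the group named first less that of the other, given with its standard error (SE). The beta-actin 3' probe set read 1.52 to 1.98 times the 5' one, a measure of RNA integrity, in the day 7 isografts and 1.75 to 1.76 times in the day 70 ones. It read 1.26 to 1.61 times in rejecting hearts, and in tolerizing hearts 1.09 to 1.37 times (day 7) and 1.24 to 1.69 times (day 70). A fit with this ratio as a covariate is given beside each count of calls that it changed.

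Of the 53 probe sets, 25 carry the suffix _f_at, which the platform gives where probes are shared within a gene family. For these a symbol names the annotated gene, and related segments could add to the signal. Among probe sets that just passed the filter were Ighv14-2 92740_at, above 11 on 3 arrays with a highest signal of 15.9, and Ighm 102159_at, above 11 on 4 arrays with a highest signal of 24.3. Just outside lay Ighm 99885_at, above 11 on 2 arrays with a highest signal of 12.4, and Igkv15-103 101329_f_at, above 11 on 2 arrays, both tolerizing hearts at day 70 (57.2 and 94.5). The other 5 that did not pass were 3 of Ighm, 1 of Ighg3 and 1 of Ighv14-2. No probe set passed through 1 group alone, but 4 of the 53 (Igha 97009_f_at, Ighm 101870_at, Ighm 102159_at and Ighv14-2 92740_at) would not have passed without the tolerizing hearts of day 70. Left out were 12 tested probe sets annotated to several immunoglobulin genes, of which 6 were called higher at day 70 in tolerizing hearts and 11 had a positive difference. Tested probe sets annotated to Igk (2), Igh-VS107 (2) and Igll1 (2) were left out too, and 0 of them were called at day 70. Positive differences were found for 2 of Igk, 1 of Igh-VS107 and 0 of Igll1.

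**Figure D1:**
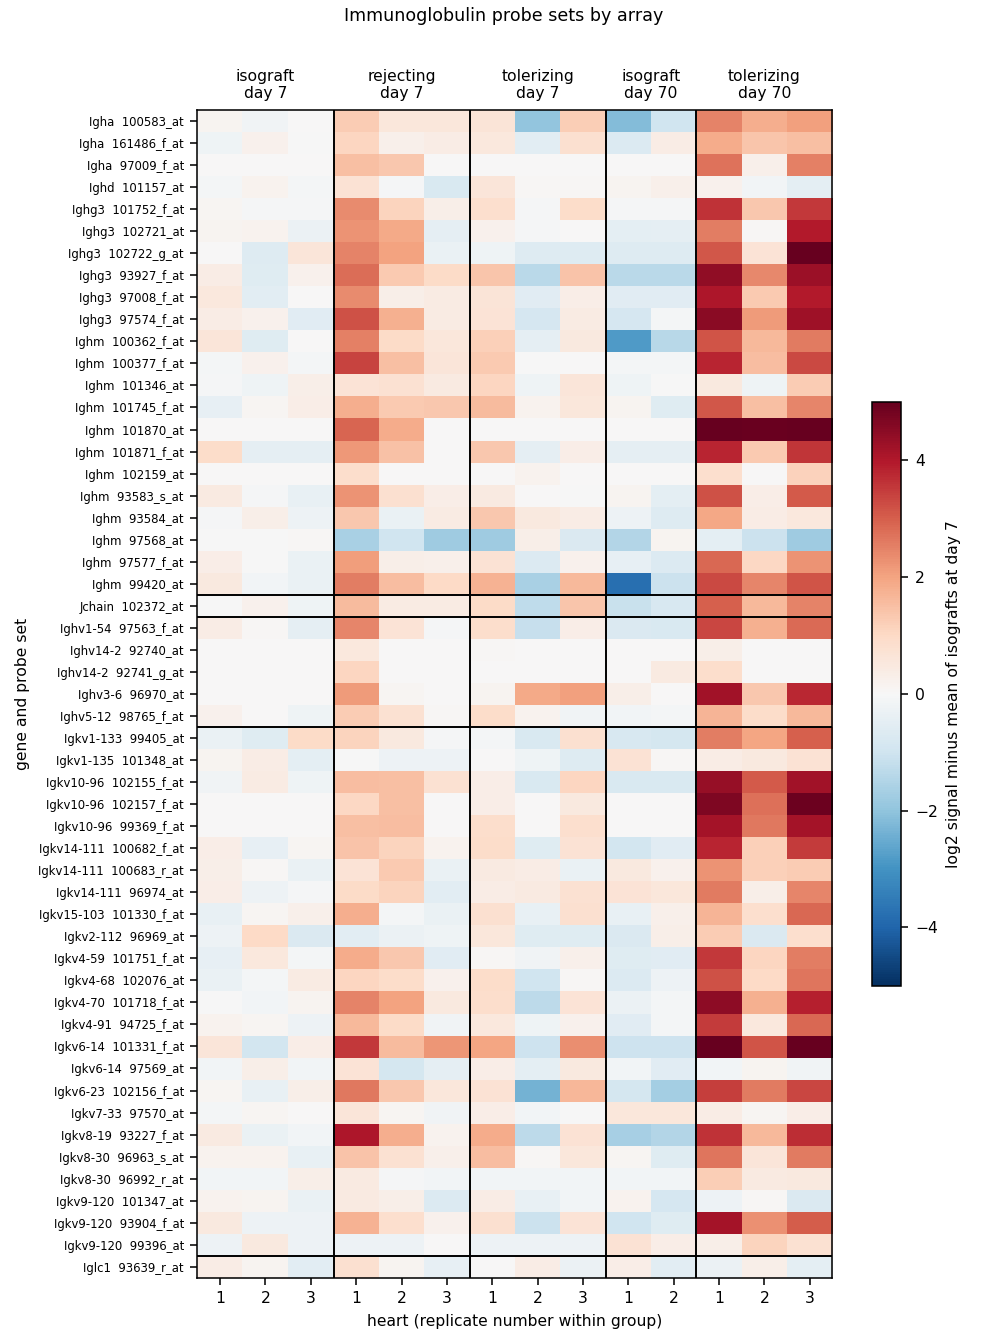
Heat map of the 53 immunoglobulin probe sets (rows, grouped by chain) on the 14 arrays (columns, grouped by graft and day). Colour gives the log2 signal minus the mean of the 3 isografts at day 7 and is capped at 5 in either direction. Tolerizing hearts 1 and 3 at day 70 are the darkest columns (medians 2.97 and 2.61), and the 2 isografts at day 70 lie slightly under the day 7 isografts (medians -0.28 and -0.25).

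Many immunoglobulin genes rose in tolerizing allografts over isografts at day 70. Of the 53 probe sets 27, of 16 genes, rose and 0 fell, where 2.35% of all probe sets tested were called higher and 0.856% lower. Heavy chain constant genes, the J chain, heavy variable and kappa variable segments all had called members, while Ighd and Iglc1 did not pass the test. The median difference was 2.65, against -0.09 over all probe sets tested, and 49 of 53 differences were positive. Immunoglobulin genes made up 11.07% of all higher calls of this comparison (27 of 244). Before the floor was applied, the 3 tolerizing hearts lay entirely above both isografts for 40 of the 53, against 12.6% of all probe sets, and entirely below them for 1, against 22.0%. The 40 include Ighv14-2 92740_at, whose tolerizing hearts 2 and 3 (3.2 and 1.4) and isografts (1.3 and 1.1) were all under the floor. At an unadjusted p under 0.05 stood 39 of the 53, against 15.4% of all. Among the 49 that pass the filter without these 3 hearts, 26 rose. The summed signal of the 53 was 34789.0, 12001.4 and 27206.5 in tolerizing hearts 1, 2 and 3, against 2134.7 and 2220.7 in the isografts, so heart 2 held less than the other tolerizing hearts and more than either isograft.

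The count rests on few hearts. Calls over all probe sets, 333 in the main fit, changed as well when a tolerizing heart was left out. Without tolerizing heart 1 there were 12 calls (144 over all probe sets), without tolerizing heart 3 there were 17 (279), and without tolerizing heart 2 there were 34 (302). Without isograft heart 1 or isograft heart 2 all 27 kept their direction, but part of them lost the call. Each of these fits without an isograft has 1 isograft left at day 70, which is assumed to vary like the hearts of the other groups. A fit on the 5 hearts of day 70 alone called 1. The second of the 2 runs of consecutive sample accessions, which no source used here explains, again holds 1 isograft. On its own it kept the direction of all 27 but not most of their calls. The fit that carries the beta-actin covariate called 22, 21 of them among the 27. Over all probe sets that fit gave 266 calls, and the fit on the 5 hearts of day 70 alone gave 37. With each tolerizing heart left out in turn 12 of the 27 kept their call, and with the isografts left out in turn as well 5 did, on the assumption just given: Ighm 101870_at, the 3 probe sets of Igkv10-96 and Igkv1-133 99405_at, the last named here after its values were seen. Of these 5, Ighm 101870_at would not have passed the filter without the tolerizing hearts of day 70, the group in which it was high. Over all 53, 48 differences were positive in the first run, with a median of 3.14 and 1 heart a group, and 47 in the second, with a median of 2.50, where these hearts also entered the calls.

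Igha encodes the constant region of IgA, the isotype of mucosal surfaces. Its probe set 100583_at read 3307.2, 2055.8 and 2427.5 in tolerizing hearts 1 to 3 at day 70, against 131.9 and 294.8 in the isografts. Isografts at day 7 read 649.5, 521.9 and 590.7, rejecting hearts 1422.6, 871.5 and 858.8, and tolerizing hearts at day 7 918.6, 148.8 and 1390.1. All 3 tolerizing hearts of day 70 lay above the other 11 arrays, and the 2 isografts of day 70 included the lowest of all. It rose by 3.69 (SE 0.68), 12.9-fold (adjusted p = 0.008814, 0.1642 without isograft heart 1). Igha 161486_f_at read 101.3, 72.2 and 78.3 against 17.5 and 36.5, a difference of 1.72 just outside the threshold (adjusted p = 0.05099, 0.03628 without isograft heart 2). Igha 97009_f_at was under the floor in both isografts and read 72.5, 13.0 and 62.4 in tolerizing hearts, and it was not called (adjusted p = 0.133, 0.003775 without tolerizing heart 2).

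Ighg3 encodes the constant region of IgG3, and no other IgG subclass had a probe set of its own among the 53. All 6 Ighg3 probe sets had a positive difference, from 2.65 to 5.07 with a median of 3.71, and 4 of them rose. Probe set 93927_f_at read 612.3, 150.3 and 550.2 in tolerizing hearts and 10.4 and 10.5, under the floor, in the isografts. It rose at least 33.6-fold (log2 5.07, SE 0.82, adjusted p = 0.003561), and its adjusted p was 0.05478 without isograft heart 1. At day 7 it read 36.6, 18.5 and 32.6 in isografts and 192.6, 70.3 and 54.4 in rejecting hearts. Ighg3 97574_f_at rose by 4.08 (SE 0.80, adjusted p = 0.01204), with 444.0, 84.4 and 366.8 against 3.2 and 18.2. Its adjusted p was 0.1684 without isograft heart 1 and 0.06008 without tolerizing heart 1. The other called ones, 97008_f_at (3.69) and 101752_f_at (2.89), lost their calls when any of isograft hearts 1 and 2 or tolerizing hearts 1 and 3 was left out, with adjusted p between 0.0618 and 0.2147.

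The remaining Ighg3 probe sets, which do not carry the family suffix, showed another order of hearts. Signals of 102721_at were 320.2, 56.2 and 858.2 in the tolerizing hearts against 39.2 and 40.3, and those of 102722_g_at were 148.6, 27.3 and 757.7 against 8.4 and 4.0. Heart 3 was the highest for both, whereas heart 1 was the highest for the 4 called Ighg3 probe sets. Neither was called (log2 2.65 with adjusted p = 0.1463, and 3.72 with adjusted p = 0.07742), and both were called without tolerizing heart 2 (adjusted p = 0.01059 and 0.00774).

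Ighm encodes the mu constant region of IgM, the first isotype a B cell makes. Its 12 probe sets did not move as 1 transcript: differences ran from -0.45 to 6.14, and 7 rose. Which part of the locus each reads was not tested, because probe sequences were not used here, so they are given by probe set. The largest difference was that of 101870_at, which read 3738.1, 337.4 and 373.6 in the tolerizing hearts and 2.2 to 6.1 in all other hearts except 2 rejecting ones (81.6 and 39.8). Isografts were at the floor, and it rose at least 70.7-fold (log2 6.14, SE 0.89, adjusted p = 0.001823). Heart 1 read far above the other tolerizing hearts, and without it the difference was 5.01 (adjusted p = 0.001703). In the fit on the day 70 hearts alone its adjusted p was 0.152.

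Ighm 99420_at showed a graded signal in every group. It read 2054.0, 1108.0 and 1820.9 in tolerizing hearts at day 70 and 15.2 and 98.4 in isografts at day 70. At day 7 it read 286.7, 185.6 and 163.9 in isografts, 1224.6, 592.6 and 406.4 in rejecting hearts, and 686.8, 66.5 and 635.8 in tolerizing hearts. The isografts of day 70 and tolerizing heart 2 of day 7 were thus the 3 lowest arrays. It rose by 5.38 at day 70 (SE 0.91, adjusted p = 0.004999, 0.1233 without isograft heart 1). Ighm 100362_f_at rose by 4.56 (SE 0.65, adjusted p = 0.001616, 0.05018 without isograft heart 1), with 683.9, 242.7 and 476.1 against 7.6 and 30.0. The other called Ighm probe sets were 101871_f_at (3.36), 100377_f_at (3.00), 97577_f_at (2.59) and 101745_f_at (2.58), and each lost its call without isograft heart 1, isograft heart 2 or tolerizing heart 1, and the first 3 of them also without tolerizing heart 3, with adjusted p from 0.05321 to 0.2692.

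Ighm 93583_s_at had signals of 2846.2, 394.8 and 2631.0 in tolerizing hearts against 341.7 and 221.0, so that heart 2 stayed near the isografts. Its difference of 2.38 was not called (adjusted p = 0.09408, 0.00285 without tolerizing heart 2). Ighm 93584_at (1.38, adjusted p = 0.2042), 101346_at (0.62, adjusted p = 0.5196), 102159_at (0.66, adjusted p = 0.3521) and 97568_at (-0.45, adjusted p = 0.7764) did not pass either, and the sign of the last turned without isograft heart 2 (0.35). Ighd, the constant region of the IgD that naive B cells carry, read 95.0, 76.1 and 58.8 in tolerizing hearts and 90.8 and 98.8 in isografts. Its groups overlapped at both days, and its difference was -0.33 (SE 0.36, adjusted p = 0.7276). Iglc1 read 32.9, 49.5 and 28.6 against 50.5 and 27.8, again overlapping (-0.06, SE 0.43, adjusted p = 0.98), and its sign turned under several settings.

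The J chain transcript is made by antibody-secreting cells for polymeric IgM and IgA. It read 1130.1, 447.0 and 802.6 in tolerizing hearts at day 70 against 66.0 and 83.4 in isografts, and these 3 hearts were the highest of all 14. At day 7 the isografts read 141.4, 169.4 and 124.7, the rejecting hearts 433.2, 192.8 and 189.7, and the tolerizing hearts 276.3, 60.3 and 379.6. Jchain rose 9.98-fold at day 70 (log2 3.32, SE 0.63, adjusted p = 0.01021). Its adjusted p was 0.1346 without isograft heart 1 and 0.05283 without tolerizing heart 1. The probe set is not of the family kind.

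**Figure D2:**
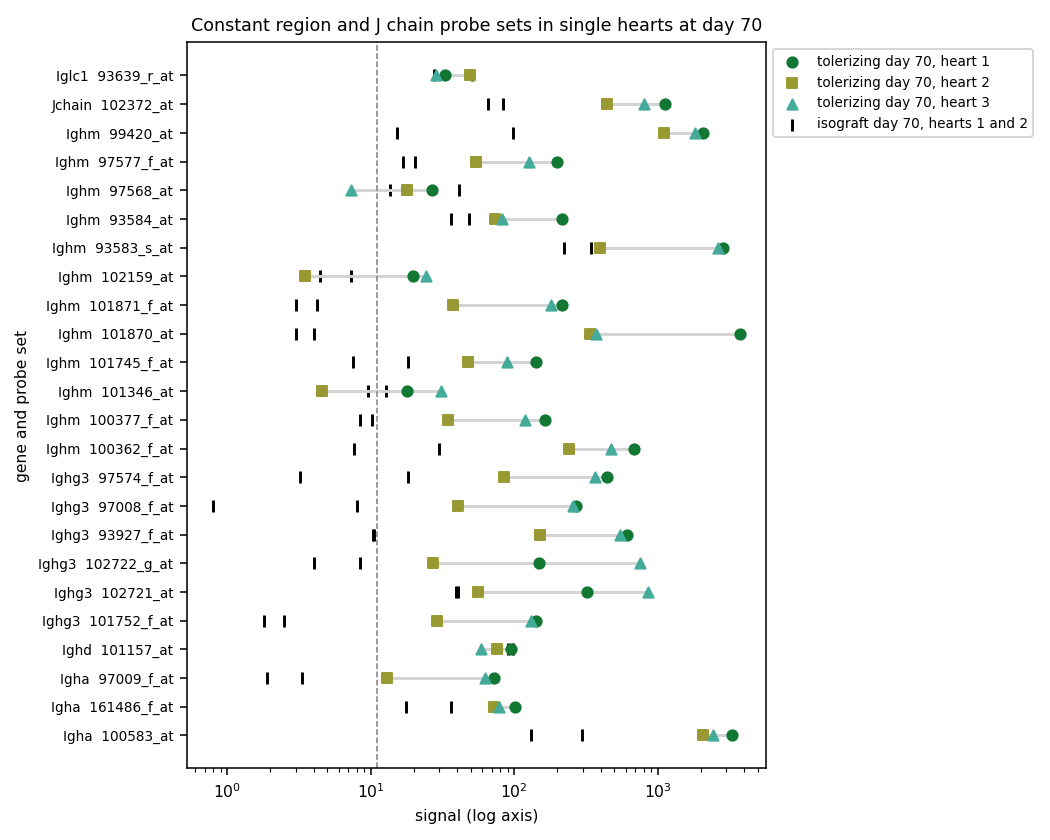
Signals of the 24 constant region and J chain probe sets at day 70 (log axis), with tolerizing hearts 1 to 3 as coloured symbols joined by a grey line, the 2 isografts as black ticks and the floor of 11 as a dashed line. Heart 2 is the lowest tolerizing heart in most rows, heart 1 stands far right for Ighm 101870_at (3738.1), and heart 3 leads for Ighg3 102721_at and 102722_g_at (858.2 and 757.7).

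Variable segments carry the antigen-binding part and differ from B cell clone to clone. Of the 5 heavy variable probe sets 2 rose at day 70. Ighv1-54 97563_f_at read 1014.8, 341.4 and 703.4 in tolerizing hearts against 60.4 and 58.5, and rose by 3.39 (SE 0.68, adjusted p = 0.01447). Ighv5-12 98765_f_at read 519.2, 302.2 and 493.6 against 143.6 and 148.6, and rose by 1.55 (SE 0.36, adjusted p = 0.03326). Both calls were lost without isograft heart 1, isograft heart 2 or tolerizing heart 1 (adjusted p 0.06791 to 0.1348 for Ighv1-54 and 0.1033 to 0.2359 for Ighv5-12), and that of Ighv5-12 also without tolerizing heart 3 (0.08686). Ighv3-6 read 199.4, 28.3 and 151.7 against 13.3 and 7.2 and was not called (2.97, adjusted p = 0.06647, 0.009232 without tolerizing heart 2). The dim Ighv14-2 92741_g_at read 20.2, 3.9 and 5.0 against 11.2 and 15.0, a difference of 0.06 (adjusted p = 0.9731) whose sign depended on the floor (-0.70 with a floor of 5).

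Among the 24 kappa variable probe sets 12 rose, of 10 genes, and the median difference was 2.70. All 3 probe sets of Igkv10-96 were called. Probe set 102155_f_at read 387.0, 159.0 and 349.7 in tolerizing hearts at day 70 and 7.1 and 1.6 in isografts, and 16.2 to 54.5 in isografts and rejecting hearts at day 7. It rose at least 25.3-fold (log2 4.66, SE 0.51, adjusted p = 0.0002128), the smallest p of all immunoglobulin probe sets in this comparison. Probe sets 102157_f_at (277.9, 73.6 and 326.5 against 3.2 and 4.6) and 99369_f_at (198.4, 67.6 and 199.0 against 7.6 and 5.1) rose at least 17.1-fold and 12.6-fold (adjusted p = 0.001084 and 0.001622). In each of the 3, every tolerizing heart of day 70 lay above the other 11 arrays.

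Igkv6-23 102156_f_at read 6371.7, 3578.7 and 5915.4 in tolerizing hearts at day 70 against 313.9 and 178.8 in isografts. The 2 lower of the 3 rejecting hearts read 1475.1 and 861.5, and the highest, 3598.5, lay just above tolerizing heart 2. It rose by 4.44 (SE 0.87, adjusted p = 0.0127), a call lost without isograft heart 1, isograft heart 2 or tolerizing heart 1 (adjusted p 0.08553, 0.08465 and 0.05407). Igkv9-120 93904_f_at read 1207.5, 321.2 and 539.9 against 33.2 and 43.6 and rose by 3.96 (SE 0.61, adjusted p = 0.002835, 0.05519 without isograft heart 1). Igkv14-111 100682_f_at rose by 3.57 (SE 0.66, adjusted p = 0.008471, 0.1209 without isograft heart 1). Igkv4-70 101718_f_at rose by 3.57 as well (SE 0.77, adjusted p = 0.02175), but not in the fits without isograft heart 1 or 2 or tolerizing heart 1 or 3 (0.06509 to 0.2038). Igkv4-91 94725_f_at, with 1447.7, 182.0 and 936.9 against 86.6 and 118.2, missed the threshold (2.63, adjusted p = 0.05286, 0.001618 without tolerizing heart 2).

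Probe sets of 1 gene did not always move together. Of the 3 Igkv9-120 probe sets 93904_f_at rose, while 101347_at and 99396_at had differences of 0.03 and 0.18 (adjusted p = 0.9959 and 0.8307). Over the whole set, 21 of the 25 family probe sets rose, with a median of 3.57, against 6 of the other 28, with a median of 1.02. The 6 were Ighm 101870_at and 99420_at, Igha 100583_at, Jchain, Igkv1-133 99405_at and Igkv4-68 102076_at, so the heavy constant and J chain calls did not come from family probe sets alone. Names of the last pair were chosen after their values were seen.

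**Figure D3:**
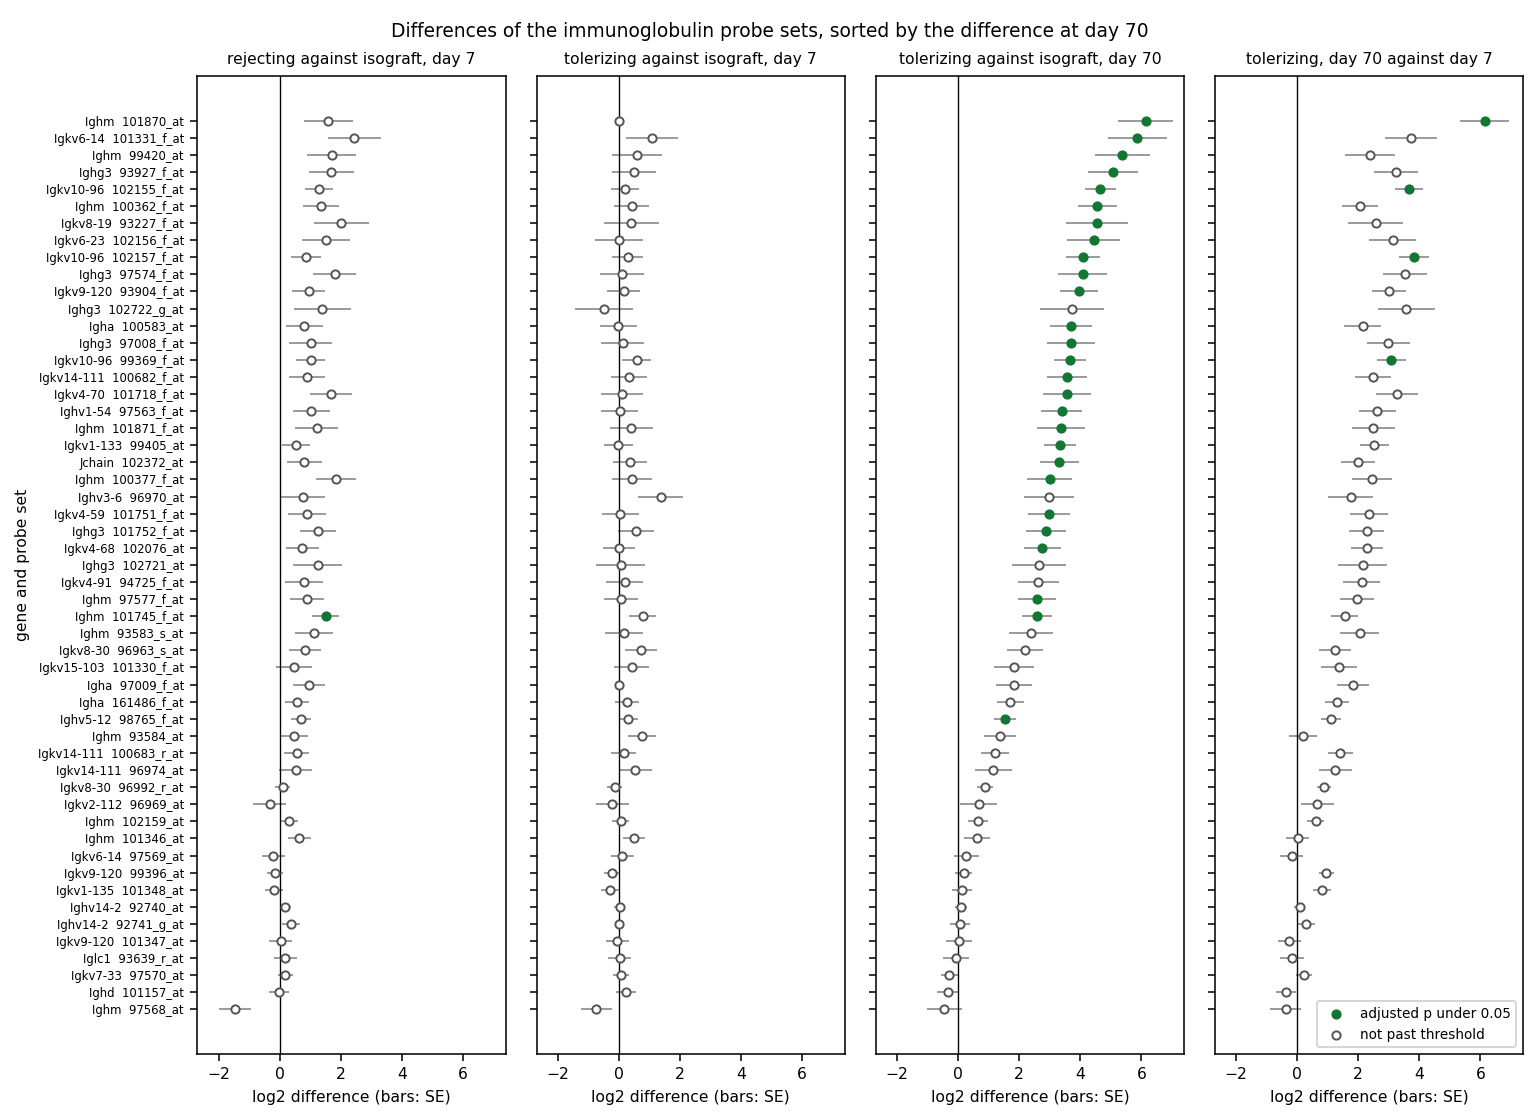
Log2 differences with SE bars for the 53 probe sets in 4 comparisons, sorted by the difference at day 70, with called ones filled. In the third panel 27 points are filled and lie to the right of 0, in the first panel 1 (Ighm 101745_f_at), in the second 0 and in the fourth 4.

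Between day 7 and day 70, 4 immunoglobulin probe sets rose in tolerizing hearts and 0 in isografts. Of the 49 that pass the filter without the day 70 tolerizing hearts 3 rose, since Ighm 101870_at would not have passed without those hearts. The 4 were the only calls among all 10395 probe sets in tolerizing hearts over time (0.0385% called higher, 0.0% lower): Ighm 101870_at and the 3 of Igkv10-96. Ighm 101870_at was under the floor in all 3 tolerizing hearts of day 7 (6.1, 2.5 and 2.3) and was at least 70.7-fold higher at day 70 (log2 6.14, SE 0.80, adjusted p = 0.009734). Igkv10-96 102155_f_at rose from 23.6, 2.1 and 39.7 to 387.0, 159.0 and 349.7 (log2 3.68, SE 0.46, adjusted p = 0.009734), and 102157_f_at and 99369_f_at rose by 3.82 and 3.08 (adjusted p = 0.009734 and 0.04021). Over the 53 the median difference was 2.04, against -0.04 over all probe sets, and 48 differences were positive. At an unadjusted p under 0.05 stood 41 of the 53, where 6.2% of all probe sets did. Every day 70 heart lay above every day 7 heart for 32, against 5.01% of all, and below for 0, against 8.61%.

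Other members had positive differences without being called. Jchain differed by 2.00 (SE 0.56, adjusted p = 0.3951), Igha 100583_at by 2.15 (adjusted p = 0.3951), Ighg3 93927_f_at by 3.24 (adjusted p = 0.1993) and Igkv9-120 93904_f_at by 3.00 (adjusted p = 0.09299, 0.02172 without tolerizing heart 2 of day 70). With the replicate number as a block, 7 of the 53 were called, out of 12 calls among all probe sets: the 4 above, Igkv9-120 93904_f_at (adjusted p = 0.02862), Igkv6-14 101331_f_at (3.73, 0.02862) and Igkv1-133 99405_at (2.53, 0.04374). Names of the last pair were chosen after their values were seen. Single hearts set the count of calls here too. It was 0 without tolerizing heart 1 or 2 of day 7, 2 without heart 3 of day 7 and 1 without heart 1 of day 70. Without heart 2 of day 70 it was 17, out of 34 calls over all probe sets. It was 0 in the fit with the beta-actin covariate and in the second run alone. This comparison shares its day 70 hearts with the one against isografts. Isografts over time had 0 calls by limma among the 53, as among all probe sets (0.0%), 3 at an unadjusted p under 0.05 (5.38% of all), and a median of -0.25. Before the floor was applied, both day 70 isografts lay below the 3 of day 7 for 19 of the 53, against 10.0% of all, and above for 3, against 11.3%. The 19 include Ighg3 101752_f_at and 102722_g_at, which were separated only by signals under the floor. Of the 19, Ighm 99420_at differed by -2.41 (SE 0.91, adjusted p = 0.8489) and Igha 100583_at by -1.57 (SE 0.68, adjusted p = 0.8936).

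Whether the difference between tolerizing and isograft hearts was itself larger at day 70 than at day 7 was tested as an interaction. None of the 53 was called by limma, and none of all probe sets (0.0%), while 34 of the 53 had an unadjusted p under 0.05, against 3.93% of all. The median interaction was 2.45, and the smallest adjusted p was that of Igkv10-96 102155_f_at (log2 4.45, SE 0.69, adjusted p = 0.1845). Without tolerizing heart 2 of day 70 there were 2 calls.

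Between tolerizing hearts and isografts at day 7 no immunoglobulin probe set passed the test. None of the 53 was called by limma (0.943% of all probe sets were called higher and 0.75% lower), 0 had an unadjusted p under 0.05 (13.0% of all), and the median difference was 0.15. The groups did not overlap for 3, with tolerizing hearts higher (9.75% of all), and for 0 in the other direction (11.6%). Tolerizing heart 2 lay under the other tolerizing hearts of day 7, with a median of -0.22 relative to the isografts against 0.59 and 0.35, and 35 of the 53 above the floor against 46 and 44. For Jchain these hearts read 60.3, 276.3 and 379.6, so that the isografts (124.7 to 169.4) fell between them. Its difference was 0.36 with an SE of 0.56 (adjusted p = 0.8841).

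In rejecting hearts at day 7, 1 immunoglobulin probe set rose over isografts. Ighm 101745_f_at alone was called, with 59.5, 41.6 and 42.8 against 12.6, 17.7 and 20.9 (log2 1.50, SE 0.44, 2.83-fold, adjusted p = 0.03097). Against this 1 of 53, 8.54% of all probe sets were called higher and 9.18% lower. The call was lost without rejecting heart 1 or 2 or isograft heart 1 or 2 (adjusted p 0.1046, 0.06243, 0.1177 and 0.07091). Without rejecting heart 3 the count was 9, with array weights it was 8, and with the beta-actin covariate it was 0. Over all probe sets these fits gave 2168, 2948 and 1452 calls, against 1842 in the main fit. The median difference was 0.82, against 0.04 over all probe sets, 47 differences were positive, and 15 of 53 were without overlap and higher, where 15.6% of all were, and 1 was lower, where 15.4% were. At an unadjusted p under 0.05 stood 10 of the 53, against 29.2% of all. Per heart the median relative to the isografts was 1.52, 0.78 and 0.00 in rejecting hearts 1, 2 and 3. Rejecting heart 3 and isograft heart 3 form the pair of the first accession run, in which the median difference was 0.24 with 31 positive, against 1.16 with 48 positive in the second.

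By annotated gene, the 6 Ighg3 probe sets had a median of 1.32, the 3 of Igha 0.80 and the 12 of Ighm 1.17, with no Ighg3 or Igha probe set called (lowest adjusted p 0.1066 and 0.2625). Jchain differed by 0.80 (SE 0.56, adjusted p = 0.3864), though its 3 rejecting hearts lay above all isografts. Ighm 97568_at was the exception in direction: it read 12.2, 18.8 and 8.1 in rejecting hearts against 36.7, 36.7 and 39.7, without overlap (log2 -1.47, SE 0.51, adjusted p = 0.06616). Of the kappa segments Igkv6-23 differed by 1.51 (SE 0.78, adjusted p = 0.223) and Igkv10-96 102155_f_at by 1.28 (SE 0.46, adjusted p = 0.07281, 0.04816 without rejecting heart 3). Between rejecting and tolerizing hearts at day 7 none of the 53 was called by limma (0.529% of all were called higher in rejection and 0.885% lower), with 3 at an unadjusted p under 0.05 (15.1% of all), 46 positive differences and a median of 0.57. Rejecting hearts lay wholly above for 1 (8.89% of all) and wholly below for 0 (7.76%). Array weights gave 4 calls there.

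**Figure D4:**
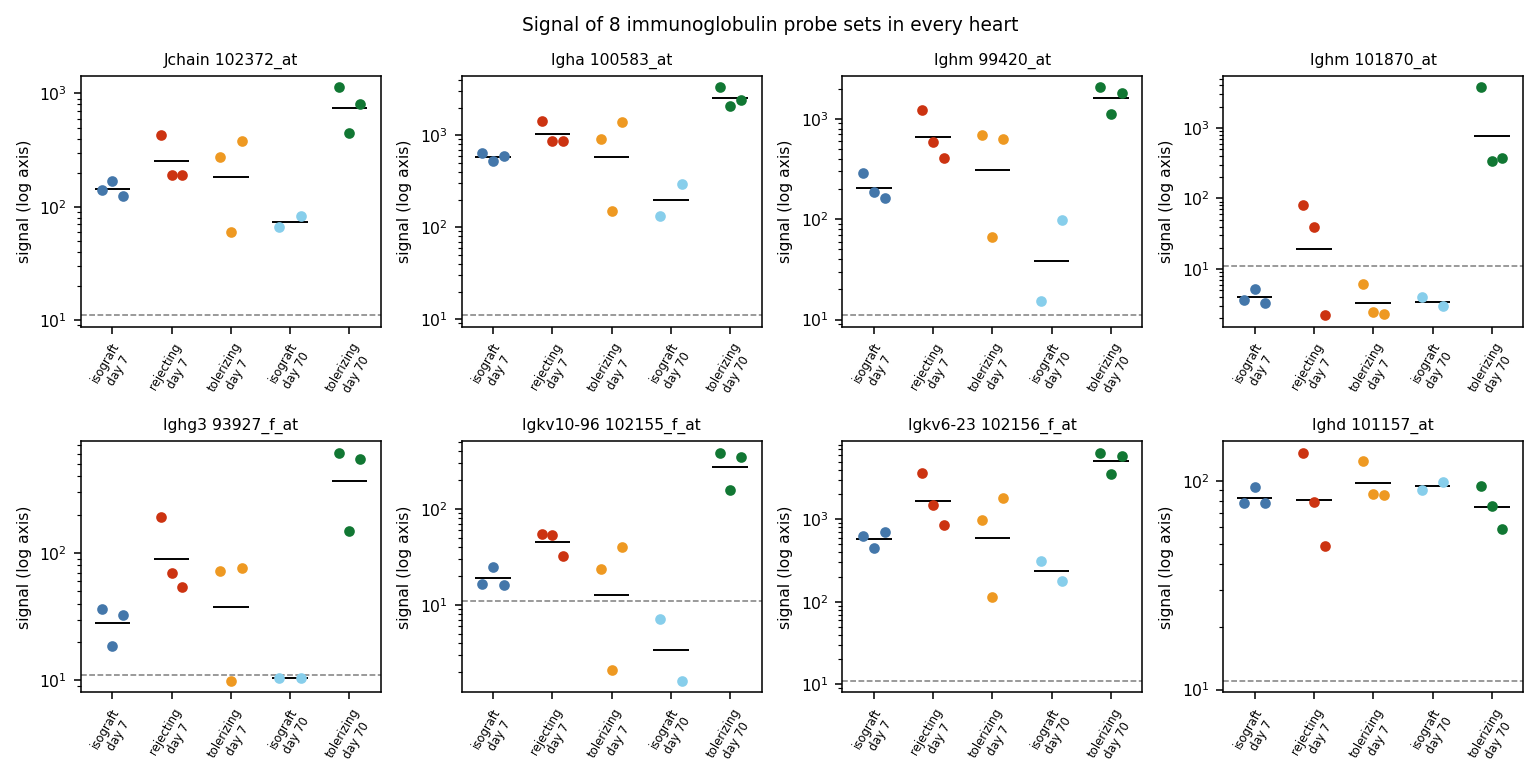
Signal of 8 immunoglobulin probe sets in each of the 14 hearts (log axes, 1 point a heart, bars at the mean of the log2 signals of a group before the floor was applied, dashed line at the floor of 11). In the Jchain, Igha, Ighm 99420_at, Ighm 101870_at, Ighg3 and Igkv10-96 panels the day 70 tolerizing points are apart from the day 70 isograft points, as they are for Igkv6-23, while for Ighd all groups share 1 range (48.9 to 136.2).

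Tolerizing hearts of day 70 kept a similar order over most probe sets. Heart 1 was the highest of its group for 38 of the 53 probe sets, heart 3 for 11 and heart 2 for 4. Heart 1 exceeded heart 2 in 48 and heart 3 exceeded heart 2 in 46, with median log2 gaps of 1.57 and 1.14. Between hearts 1 and 3 the median gap was 0.26, but single probe sets ran from -2.35 (Ighg3 102722_g_at) to 3.32 (Ighm 101870_at). Across all 14 arrays 44 of the 53 were highest in a tolerizing heart of day 70 and 8 in rejecting heart 1. All 3 day 70 tolerizing hearts exceeded the other 11 arrays for 10 probe sets, and hearts 1 and 3 did so for 35.

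The 53 probe sets moved largely together from heart to heart. The correlation of each with the mean of the other members over the 14 arrays had a median of 0.90, 28 were over 0.9, and 3 were below 0 (the lowest, -0.43, was Ighm 97568_at). With group means removed, so that only differences between hearts of a group remain, the median was 0.79. These points share arrays, and the family probe sets share probes. Outside the set, probe sets annotated to 1 gene were ranked by correlation, so those annotated to several immunoglobulin genes were left out. Of the ranked ones, 101319_f_at followed the mean log2 signal of the constant region and J chain probe sets most closely (r = 0.96 over 14 arrays). The platform annotates it to Adck1, it is of the family kind, and whether it reads Adck1 or an immunoglobulin transcript was not tested. It was followed by probe sets annotated to Ppef2 (0.86), Slpi (0.85), Pou2af1 (0.84), Prkcb (0.83), Tiam1 (0.81), Marco (0.81) and Syk (0.81). Pou2af1, the coactivator of octamer factors in B cells, read 67.2, 23.0 and 32.3 in tolerizing hearts at day 70 and 16.8 and 18.1 in isografts.

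Markers of B cells had 2 calls and those of plasma cells 0 at day 70, where 2.35% of all probe sets were called higher. With 18 and 14 genes tested, these counts cannot show whether the markers stayed level. Of the B cell list 18 of 25 genes were tested, and 2 rose: Cd72 by 2.97 (SE 0.66, adjusted p = 0.02555) and Cd37 by 1.36 (SE 0.32, adjusted p = 0.03695), 0 fell, and the list's median was 0.29. An unadjusted p under 0.05 was found for 5 of the 18, all with positive differences, against 15.4% of all probe sets. The summed signal of that list was 1080.0 to 1941.1 in tolerizing hearts and 642.1 to 815.6 in isografts. Of the defining markers Cd79a, a chain of the B cell receptor, read 100.7, 77.5 and 65.7 against 54.0 and 90.5, and Cd79b read 108.7, 68.1 and 54.8 against 27.1 and 7.5 (log2 2.10, adjusted p = 0.09965). Ms4a1, which encodes CD20, read 75.7, 54.5 and 55.5 against 72.4 and 69.0, and Cr2 was under the floor on every array. In rejecting hearts at day 7 the list had 1 higher call, Cd72 again (2.32), and 1 lower, Ebf1 (-1.24). There 8.54% of all probe sets were called higher and 9.18% lower. Over time in tolerizing hearts Cd72 differed by -0.02.

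Plasma cell genes showed no call at day 70. Of 16 listed, 14 were tested and 0 were called by limma. An unadjusted p under 0.05 was found for 4, all with positive differences, against 15.4% of all probe sets, and the median was 0.42. Xbp1, the transcription factor of the secretory program, came nearest (log2 0.96, SE 0.25, adjusted p = 0.05643), with 374.9, 243.1 and 287.5 against 121.9 and 191.9. Sdc1 and Tnfrsf17, surface markers of plasma cells, read 38.0, 33.6 and 27.9 against 32.2 and 35.2, and 45.9, 37.9 and 38.0 against 55.3 and 37.9. The list summed to 2593.1 to 2858.6 in tolerizing hearts and 1966.8 to 2320.3 in isografts. In rejecting hearts at day 7, immunoglobulin genes had 1 call and 8.54% of all probe sets were called higher. There 5 of the 14 rose: Prdm1 (1.51), Edem1 (1.48), Creld2 (1.00), Xbp1 (0.79) and Hsp90b1 (0.57). Sums were 3417.8 to 3876.6 against 2279.2 to 2526.3. Most of these genes also serve protein folding and secretion in other cells.

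**Figure D5:**
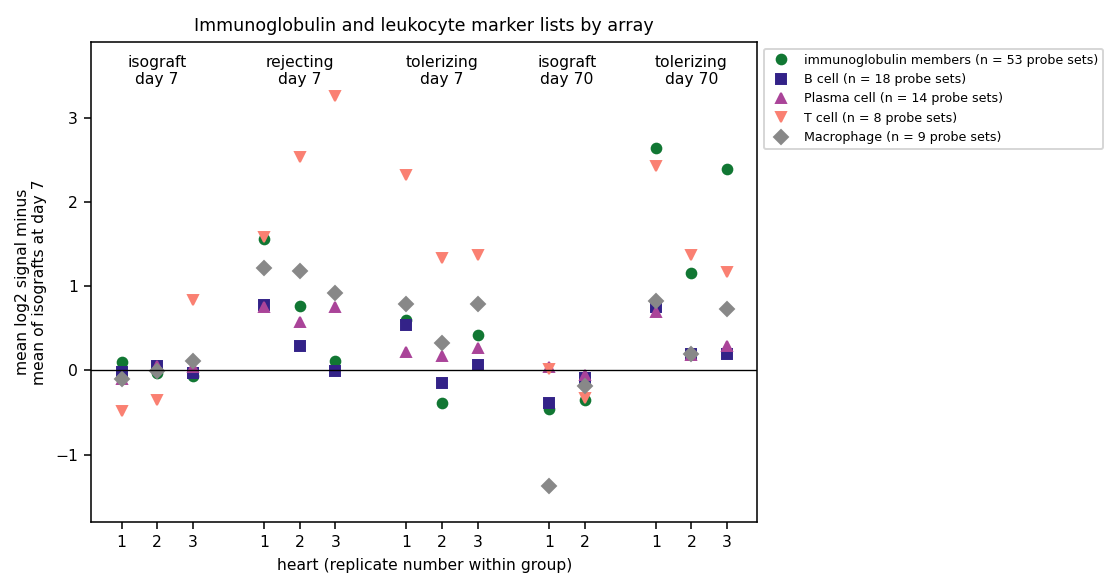
Mean log2 signal of the 53 immunoglobulin probe sets and of the B cell, plasma cell, T cell and macrophage lists on each array, relative to the mean of the isografts at day 7. In tolerizing hearts 1, 2 and 3 at day 70 the immunoglobulin mean is 2.65, 1.15 and 2.39 and the plasma cell mean 0.70, 0.18 and 0.30, whereas in rejecting hearts the plasma cell means are 0.76, 0.58 and 0.75 beside immunoglobulin means of 1.56, 0.76 and 0.11.

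Other leukocyte markers rose in the same day 70 comparison, in which 2.35% of all probe sets were called higher. In the T cell list 2 of 8 tested genes rose (Cd8b1 by 3.07 and Zap70 by 3.45) with a median of 2.15, and in the macrophage list 4 of 9 rose (Csf1r, Lyz2, Ctss and Mpeg1) with a median of 1.09. T cell signals summed to 419.2 to 1086.4 in tolerizing hearts and 113.5 to 177.8 in isografts, and macrophage signals to 6081.8 to 8626.7 and 1356.8 to 3073.9. Cardiomyocyte genes, 7 of 9 tested, had 0 calls at day 70 and a median of -0.32, red cell genes, 3 of 7 tested, 0 calls and a median of 1.29, and B cell precursor genes, 5 of 7 tested, 0 calls and a median of -0.57. Relative to day 7 isografts, isografts 1 and 2 of day 70 had red cell means of -1.81 and -0.75 and macrophage means of -1.37 and -0.18. In rejecting hearts at day 7 all 7 cardiomyocyte genes were called lower (9.18% of all probe sets). Their means in rejecting hearts 1, 2 and 3 were -3.41, -2.89 and -0.91. The part of these cell types in the immunoglobulin result was not tested. Over time in tolerizing hearts no listed gene was called, and list medians lay between -0.23 and 0.32.

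Genes around the antibody response made up 2 more lists. Of 21 genes for B cell help, homing and class switching 14 were tested. At day 70 none was called by limma. At an unadjusted p under 0.05 stood 5 of them, against 15.4% of all probe sets. Of these, 3 had positive differences (Cd86 1.30, Cd40 1.01 and Cxcl13 1.58) and 2 negative ones (Ung -0.65 and Il4 -0.58). In rejecting hearts at day 7, 4 of the 14 rose and 0 fell, where 8.54% of all probe sets were called higher and 9.18% lower. The 4 were Il6 (2.98), Cd86 (2.79), Cd28 (1.99) and Ifng (1.91). The homing chemokine Cxcl13 read 34.3, 9.6 and 93.4 in tolerizing hearts 1 to 3 at day 70 and 9.1 and 5.9 in isografts. At day 7 it read 26.6, 34.8 and 44.8 in tolerizing hearts, 15.2, 38.8 and 6.1 in isografts and 19.4, 5.5 and 2.1 in rejecting hearts. Of 10 immunoglobulin receptor genes 7 were tested. None was called at day 70 by limma (median 0.72), with 3 at an unadjusted p under 0.05 (15.4% of all probe sets). In rejecting hearts at day 7, 3 of the 7 rose, the Fc receptor genes Fcgr1 (2.14), Fcgr2b (2.21) and Fcer1g (3.29). The 1 that fell was Pigr, the transporter of polymeric immunoglobulin, by 0.64 on the log2 scale. Fcgr1 read 452.4, 207.7 and 165.8 in tolerizing hearts at day 70 and 62.5 and 154.3 in isografts.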

How the data were processed

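The deposited table holds the authors' signal intensity on a linear scale for 12488 probe sets on 14 arrays. No source used here names the software or scaling behind it. Trimmed means (2% off each end) were 100.06 to 100.07 on every array, so the values were already on 1 scale and no further scaling was applied. The 66 control probe sets were left out, intensities under 11 were set to 11, log2 was taken, and probe sets above 11 on at least 3 arrays were tested (83.7%). The platform annotation gave 1 gene for 10833 probe sets, several for 396 and none for 1193. Gene IDs of 10817 of the 10833 were found in the RefSeq GRCm38.p6 table, whose symbols were used. No genome coordinates were used.

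One fit of all 5 groups was made with limma 3.58.1 in R 4.3.3 (eBayes with intensity trend, 9 residual and 4.45 prior degrees of freedom), and tested on simulated data. P-values are two-sided, with Benjamini-Hochberg adjustment over all probe sets tested and a threshold of 0.05. Folds against a group wholly at the floor are lower bounds. The main fit paired no hearts, and replicate numbers entered only as a block in an alternative fit. For tolerizing hearts over time, deviations from the group means correlated at 0.25 to 0.34 in all 3 same-numbered pairs (-0.29 to 0.04 in the 6 others). Deviations within a group sum to 0, so the same-numbered pairs and the others are not independent. Heart 3 of either day is also in the first run, so number and run cannot be told apart for that pair. A pairing by number rests on the data, since no label says what a number marks. With 2 or 3 arrays a group, the number of arrays limits the precision.

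Members and gene lists were chosen with earlier results of these data known. The naming rule takes every constant region and J chain probe set, the 4 heavy and 4 light variable ones with the highest mean signal, up to 4 called variable ones with the smallest p per comparison, any called against the common direction, the 8 genes that follow the constant regions most closely, and of each list its defining markers and up to 4 genes with the smallest p. Cxcl13, Edem1, Ung, Il4 and other genes named beyond that were picked after their values were seen. Alternatives were scalings, floors, filters, weights, blocks and left-out arrays.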

Additional observations from a re-analysis of the deposited data

How the results depend on the processing

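Of 1429 alternative values for differences of single probe sets, 1167 kept direction and side of the threshold, 194 lost the call, 46 gained one and 22 changed sign. Those 22 belong to 6 probe sets that were not called at day 70, with differences of -0.45 to 0.18. In the second run alone Ighm 97568_at was 0.68, Igkv9-120 99396_at -0.033, Igkv1-135 101348_at -0.31 and Igkv9-120 101347_at -0.28, the last -0.077 with the run as a block. Ighv14-2 92741_g_at was -0.70 with a floor of 5, -0.23 with a pseudocount of 16 and -0.082 with array weights. Iglc1 was 0.071 with array weights, 0.16 with the replicate block and 0.14 with the beta-actin covariate. With arrays left out the ranges were -1.25 to 0.35 (Ighm 97568_at), -0.023 to 0.40 (99396_at), -0.20 to 0.48 (101348_at), -0.24 to 0.27 (92741_g_at), -0.49 to 0.37 (Iglc1) and -0.49 to 0.55 (101347_at). Of 143 alternative medians over the immunoglobulin probe sets, 13 moved by more than the spread between replicates.

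For tolerizing against isograft hearts at day 70 (27 calls), no filter on low signals gave 14, the groups compared alone 1, the second accession run alone 2, and arrays left out one at a time 5 to 34. Quantile and median scaling gave 29 each, the beta-actin covariate 22, and the other settings 19 to 31. For tolerizing hearts over time (4 calls), a floor of 5 gave 1, a floor of 40 gave 2, no filter 0, array weights 9, the groups compared alone 0, the second run alone 0, the beta-actin covariate 0, and arrays left out 0 to 17. For rejecting hearts against isografts (1 call), a floor of 40, a pseudocount of 16, no filter, the second run alone and the beta-actin covariate gave 0, array weights 8, the groups compared alone 2, and arrays left out 0 to 9. Array weights gave 4 calls for rejecting against tolerizing hearts (0 otherwise), and the interaction had 0 to 2 with arrays left out. Calls over all probe sets changed with the settings too. For rejecting hearts against isografts they were 1842 in the main fit and 2948 with array weights. The cause of these changes was not tested.

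Apart from tolerizing hearts over time, no comparison had all its same-numbered arrays correlated over 0.1 (-0.18 to 0.25 over the other comparisons). With the replicate number as a block the calls were 31 at day 70, 7 over time and 4 for rejecting against isograft hearts, and the counts of the other comparisons stayed at 0.

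Donor strain and graft type cannot be told apart, 2 isografts stand for day 70, and signals at or under the floor of 11 have no order.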
